A study of Mus musculus with 8 samples.

Results

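The 8 genes Nefl, Nefm, Gap43, Ncam1, Nptx1, Crabp1, Agtr2 and Slc14a1 were picked for high levels in mouse soft tissue sarcomas, most of them being genes better known from nerve cells than from muscle. They were 8 of 12393 genes measured, each read from 1 probe set, the one with the highest mean level where a gene had several. The study profiled 8 Affymetrix arrays, 6 from primary sarcomas and 2 from normal muscle of a hind limb that bore no tumour. All animals carried p53 Fl/Fl, that is 2 conditional copies of the tumour suppressor p53, and either 2 copies (Ca/Ca) or 1 copy (Ca/+) of the conditional Braf allele Ca. Tumours had been started by injecting an adenovirus that expresses Cre recombinase, which recombines such alleles in the cells that the virus reaches, and the muscles came from mice with the same alleles. The groups were 4 Ca/Ca sarcomas (numbered 1, 2, 3 and 5 by the submitters), 2 Ca/+ sarcomas (1 and 2), 1 Ca/Ca muscle and 1 Ca/+ muscle. Nothing in the labels ties the arrays to separate animals, so errors and p-values cover the spread of these samples only, some of which may be technical.

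Levels are log2 values, in which a difference of 1 is a 2-fold difference in signal. Array medians lay between 5.79 and 5.90. To show where signal ends, 26 measured genes of unrelated organs were read on the same arrays. Their median level was 2.98, and 90% of their values lay below 4.60, which is called the signal floor here. A level below it is no evidence of expression, and a difference against such a level is a lower bound. Correlations between arrays over all genes ran from 0.940 to 0.983 for pairs of sarcomas and reached 0.968 for the 2 muscles. The Ca/Ca muscle stood nearer to the sarcomas (0.899 to 0.932) than the Ca/+ muscle did (0.860 to 0.889). The members' levels are given for each muscle, because 7 of the 8 genes differed strongly between the muscles, while a difference between sarcoma and muscle uses the mean of both muscles unless one is named.

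Neurofilament light and medium chains, encoded by Nefl and Nefm, assemble with a heavy chain into the intermediate filaments that fill axons and set their calibre. Gap43 is a phosphoprotein of the growth cone, the moving tip of a growing axon, and Ncam1 is an immunoglobulin-type adhesion molecule of neurons that is also present on immature and denervated muscle fibres. Nptx1 is a secreted pentraxin that clusters glutamate receptors at synapses, Crabp1 binds retinoic acid in the cytoplasm, Agtr2 is the type 2 receptor for angiotensin II, and Slc14a1 is a urea channel of red blood cells and kidney vessels. The last 3 are not markers of neurons, although Crabp1 and Agtr2 are found in the embryonic nervous system and in embryonic mesenchyme.

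Promoter sequences were at hand for Crabp1 and Agtr2, and are shown because their upstream DNA differed in base composition. Both genes were above the floor in every sarcoma, and in the Ca/Ca muscle Crabp1 read 9.78 and Agtr2 only 5.06. Each line gives the 250 bases before the annotated start of the gene (RefSeq, build GRCm38.p6, plus strand), with the motif that occurs more than once in capitals. For Crabp1, at chr9:54764498-54764747, the capitals mark matches to the GC box GGGCGG on either strand. For Agtr2, at chrX:21484374-21484623, they mark matches to the E-box CANNTG.
Crabp1: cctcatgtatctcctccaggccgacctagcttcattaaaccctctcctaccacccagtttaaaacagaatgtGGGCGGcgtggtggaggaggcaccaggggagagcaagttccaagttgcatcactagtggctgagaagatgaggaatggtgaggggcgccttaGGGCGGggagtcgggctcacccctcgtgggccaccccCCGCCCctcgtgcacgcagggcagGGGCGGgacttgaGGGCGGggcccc
Agtr2: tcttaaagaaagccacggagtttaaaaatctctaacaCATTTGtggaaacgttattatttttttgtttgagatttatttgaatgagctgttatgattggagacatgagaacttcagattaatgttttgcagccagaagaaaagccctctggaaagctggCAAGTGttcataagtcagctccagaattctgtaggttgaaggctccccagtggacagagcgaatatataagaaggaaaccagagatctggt
The Crabp1 window was 63.6% G and C, at percentile 80.0 of 32841 promoter windows, and held 12 CpG pairs. The Agtr2 window was 38.4% G and C, at percentile 9.03, and held 3 CpG pairs. The median window was 52.4% G and C with 6 CpG pairs. GGGCGG matched 5 times in the Crabp1 window and 0 times in that of Agtr2, where 32.7% of all windows hold a match. CANNTG matched 2 times in the Agtr2 window and 0 times in that of Crabp1 (66.2% of all windows), and CCAAT matched 1 time in the Agtr2 window and 0 times in that of Crabp1 (33.9%). Neither window held TATAAA (in 12.4% of windows), the AP-1 site TGANTCA (6.75%), the ETS core CCGGAAG (6.91%), the left and right arms of the REST site TTCAGCACC (0.301%) and GGACAGC (5.29%), or the retinoid receptor core AGGTCA (14.0%). Both strands were searched. These matches describe letters only, and a missing match says nothing of whether a factor binds.

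The 8 genes were selected on their levels in the sarcomas, so the differences from muscle that follow are a description with no test. On the probe sets used, every gene was above the floor in all 6 sarcomas, although Gap43 only just so in Ca/Ca sarcoma 2. Every gene was below the floor in the Ca/+ muscle on these probe sets. A second probe set of Nptx1 (4.78) and another of Ncam1 (4.92) read above the floor in that muscle. The Ca/Ca muscle lay between the Ca/+ muscle and the sarcoma mean for all 8 genes, although 1 sarcoma fell below it for Nptx1 and Gap43 was below the floor in both muscles. The mean difference between sarcoma and muscle ran from 2.84 (Ncam1) to 4.91 (Crabp1), with a median of 3.89 against 0.026 over all genes. All 6 sarcomas exceeded both muscles for 7 of the 8 genes, a pattern met by 20.0% of all genes, and nothing is read from that count because the choice of genes used it. For scale, 13.1% of all genes passed the limma test as higher in sarcoma than in muscle and 13.2% as lower. In bulk RNA, fewer cells of a type and less RNA per cell cannot be told apart.

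**Figure D1:**
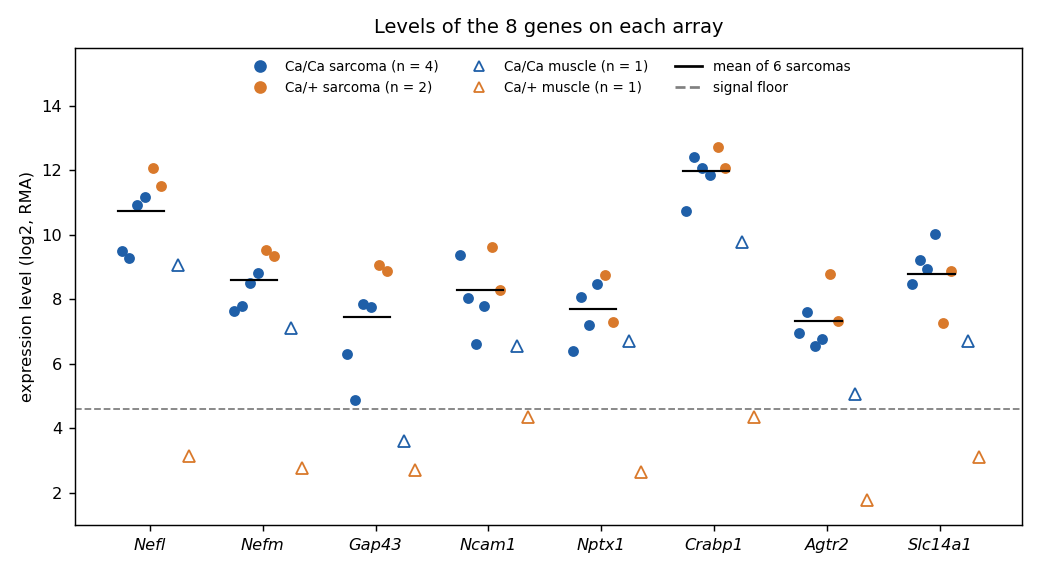
Level (log2) of each of the 8 genes on each of the 8 arrays, with filled circles for sarcomas, open triangles for muscles, a bar for the mean of the 6 sarcomas and a dashed line at the signal floor of 4.60. The Ca/+ muscle lies below the floor for all 8 genes, and the Ca/Ca muscle lies between it and the sarcoma mean.

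Among the neurofilament genes, Nefl had levels of 9.48, 9.28, 10.93 and 11.18 in Ca/Ca sarcomas 1, 2, 3 and 5, and 12.06 and 11.51 in Ca/+ sarcomas 1 and 2. The muscles stood at 9.05 (Ca/Ca) and 3.13 (Ca/+). The mean over sarcomas was 10.74 ± 1.12 (SD, n = 6), and sarcomas differed among themselves by up to 6.90-fold. Ca/Ca sarcomas 1 and 2 were therefore close to the Ca/Ca muscle, while both Ca/+ sarcomas were above every other array. The difference from the Ca/Ca muscle was 1.69 and that from the Ca/+ muscle at least 7.61.

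Nefm, which encodes the partner chain, read 7.65, 7.79, 8.50 and 8.80 in Ca/Ca sarcomas 1, 2, 3 and 5. It read 9.54 and 9.34 in Ca/+ sarcomas 1 and 2, with muscles at 7.11 (Ca/Ca) and 2.78 (Ca/+). Its mean over sarcomas was 8.60 ± 0.78 (SD, n = 6). The arrays thus fell into nearly the same order as for Nefl, with sarcomas 1 and 2 of the Ca/Ca genotype lowest of the tumours and the Ca/+ sarcomas highest. The heavy chain Nefh was below the floor on all 8 arrays, with a sarcoma mean of 2.87 ± 0.28 (SD, n = 6). The related filament genes Ina (3.61 ± 0.11) and Prph (4.51 ± 0.29) likewise stayed at or near the floor in the 6 sarcomas, so of these 5 filament genes of nerve cells only Nefl and Nefm gave a clear signal.

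Gap43 varied most, with levels of 6.30, 4.87, 7.86 and 7.75 in Ca/Ca sarcomas 1, 2, 3 and 5 and of 9.05 and 8.88 in Ca/+ sarcomas 1 and 2. The muscles read 3.60 (Ca/Ca) and 2.70 (Ca/+), both below the floor. Its sarcoma mean was 7.45 ± 1.60 (SD, n = 6), and the highest sarcoma exceeded the lowest 18.1-fold. Ca/Ca sarcoma 2 was barely above the floor, and the Ca/+ sarcomas again led. The spread of Gap43 over sarcomas ranked at percentile 99.1 of all genes.

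Ncam1 read 9.36, 8.04, 6.61 and 7.77 in Ca/Ca sarcomas 1, 2, 3 and 5, and 9.63 and 8.29 in Ca/+ sarcomas 1 and 2. The Ca/Ca muscle read 6.56 and the Ca/+ muscle 4.33. Averaged over sarcomas it read 8.28 ± 1.10 (SD, n = 6). Here the order of the tumours differed from that of the neurofilament genes, since Ca/Ca sarcoma 1 was second highest and Ca/Ca sarcoma 3 stood only 0.05 above the Ca/Ca muscle. Ncam1 had 6 probe sets, which can read different transcript forms of this gene, and they did not give 1 answer. Besides the one used (difference from muscle 2.84), 3 gave differences of 2.33, 1.805 and 1.05, and 2 were below the floor on all sarcomas and gave 0.16 and −0.18. The related gene Ncam2 was below the floor on all 8 arrays (sarcoma mean 3.09 ± 0.24, SD, n = 6). The enzymes that attach polysialic acid to Ncam1 had differences from muscle of 0.0138 (St8sia2, limma adjusted p = 0.952) and 0.06 (St8sia4, limma adjusted p = 0.924).

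Nptx1 had levels of 6.39, 8.06, 7.19 and 8.48 in Ca/Ca sarcomas 1, 2, 3 and 5. It had levels of 8.76 and 7.30 in Ca/+ sarcomas 1 and 2, while the muscles read 6.71 (Ca/Ca) and 2.63 (Ca/+). Averaged over sarcomas it read 7.70 ± 0.90 (SD, n = 6). It was the member whose sarcomas overlapped a muscle, because Ca/Ca sarcoma 1 lay 0.33 below the Ca/Ca muscle, and the mean difference from that muscle was 0.98, close to the SD of the sarcomas. A second probe set was lower in the sarcomas (5.75 to 7.51) and gave a smaller difference from muscle of 1.285. The relative Nptx2 read 5.19 ± 0.81 (SD, n = 6) in sarcomas against 4.25 (Ca/Ca) and 3.30 (Ca/+) in muscle, a difference of 1.42 that did not pass (limma adjusted p = 0.0955).

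Crabp1 was bright and the most even of the 8 genes, although its spread over sarcomas ranked at percentile 90.9 of all genes. It read 10.72, 12.41, 12.06 and 11.84 in Ca/Ca sarcomas 1, 2, 3 and 5, 12.73 and 12.08 in Ca/+ sarcomas 1 and 2, and 9.78 (Ca/Ca) and 4.36 (Ca/+) in the muscles. The mean over sarcomas was 11.97 ± 0.69 (SD, n = 6). Ca/Ca sarcoma 1 was the low array, and the 2 genotypes of tumour overlapped. Its relative Crabp2 had a wide spread over sarcomas (7.85 ± 1.31, SD, n = 6), was likewise higher in the Ca/Ca muscle (6.97) than in the Ca/+ muscle (3.85), and did not pass against muscle (difference 2.43, limma adjusted p = 0.125).

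Agtr2 read 6.94, 7.62, 6.54 and 6.77 in Ca/Ca sarcomas 1, 2, 3 and 5, and 8.79 and 7.34 in Ca/+ sarcomas 1 and 2. The Ca/Ca muscle read 5.06 and the Ca/+ muscle 1.78. Its sarcoma mean was 7.33 ± 0.81 (SD, n = 6). Ca/+ sarcoma 1 stood more than 1 log2 unit above the next array, and the other 5 sarcomas ran from 6.54 to 7.62.

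Slc14a1 had its higher mean in the Ca/Ca tumours, unlike the other 7 genes. It read 8.48, 9.20, 8.93 and 10.01 in Ca/Ca sarcomas 1, 2, 3 and 5, but 7.25 and 8.88 in Ca/+ sarcomas 1 and 2, with muscles at 6.71 (Ca/Ca) and 3.12 (Ca/+). The mean over sarcomas was 8.79 ± 0.91 (SD, n = 6). Ca/+ sarcoma 1, the highest array for the other 7 genes, was the lowest sarcoma for Slc14a1, while Ca/+ sarcoma 2 lay within the Ca/Ca range. The difference between genotypes (Ca/Ca minus Ca/+) was 1.09 with Ca/+ sarcoma 1 and 0.28 without it. A second probe set gave the same picture at a lower level (6.15 to 8.55 in sarcomas, difference from muscle 2.83). The other urea transporter measured, Slc14a2, differed from muscle by −0.33 (limma adjusted p = 0.14).

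The 2 muscles differed in 7 of the 8 genes, each time with the Ca/Ca muscle higher. The Ca/Ca muscle exceeded the Ca/+ muscle by at least 60.8-fold for Nefl, 42.7-fold for Crabp1, 20.2-fold for Nefm, 16.9-fold for Nptx1, 12.0-fold for Slc14a1, 9.68-fold for Agtr2 and 4.67-fold for Ncam1, each a lower bound because the Ca/+ muscle was below the floor. For Gap43 no fold is given, since both muscles were below the floor. Thus 7 of the 8 genes were at least 2-fold higher in the Ca/Ca muscle, against 4.49% of all genes, and the median difference was 3.84 against −0.0070 over all genes. With 1 array on each side there is no test, and the choice of genes used both muscles. Read as linear signal, the Ca/Ca muscle held 50.6% of the sarcoma mean for Nptx1, 35.6% for Nefm, 31.1% for Nefl, 30.2% for Ncam1, 23.6% for Slc14a1, 21.8% for Crabp1, 20.7% for Agtr2 and 6.94% for Gap43. On the probe sets used, the share in the Ca/+ muscle was between 0.51% and 6.47%. Whether the Ca/Ca muscle held tumour cells was not tested, and the labels do not tell.

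This step between the muscles was also met in other genes picked as high in every sarcoma against the Ca/+ muscle. Beyond the 8, 119 genes were at least 4-fold higher in each sarcoma than in the Ca/+ muscle, and 99 of them (83.2%) were at least 2-fold higher in the Ca/Ca than in the Ca/+ muscle. Both figures use the same Ca/+ array, so they are not independent, and the filter favours genes that are low on it. The 83.2% and the Ca/Ca muscle shares of these 119 genes are therefore partly set by the filter. Nothing is read from them. In these 119 genes the Ca/Ca muscle held a median of 32.1% of the sarcoma mean (quartiles 25.6% and 42.6%), with Nefl, Nefm and Ncam1 within those quartiles, Nptx1 above them, and Slc14a1, Crabp1, Agtr2 and Gap43 below. Genes of the contractile fibre did not share it: the mean of 20 muscle fibre markers was 12.25 and 12.23 in the Ca/Ca and the Ca/+ muscle. At least 2-fold higher in the Ca/Ca muscle were 10 of 15 macrophage markers and 7 of 16 fibroblast and mesenchymal markers. So were 5 of 15 Schwann cell and glial markers and 2 of 21 neuron markers, against 4.49% of all genes. Hmga2, a chromatin protein of embryonic and tumour cells singled out after its values were seen, had a sarcoma mean of 10.91 ± 0.54 (SD, n = 6) and muscle levels of 8.57 (Ca/Ca) and 4.53 (Ca/+).

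Whether the tumours of the 2 Braf genotypes differed was not used to choose the genes and could be tested, on 4 against 2 sarcomas. No member passed, and neither did any gene: 0 of 12393 genes (0.0%) had a limma adjusted p under 0.05, the smallest being 0.196. The mean was higher in Ca/+ sarcomas for 7 of the 8 genes, but the share over all genes was not computed and no trend is read from it. That mean is of 2 arrays, and Ca/+ sarcoma 1 was the highest sarcoma for all 7. For Nefl, Nefm and Gap43 both Ca/+ sarcomas exceeded all 4 Ca/Ca sarcomas, a separation in this direction that 11.3% of all genes showed. The same 3 had an unadjusted p under 0.05, as did 971 genes in all, and 4.89% of all genes did so with the higher level in Ca/+.

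Gap43 had the widest gap, with means of 6.69 ± 1.41 (SD, n = 4) in Ca/Ca and 8.97 ± 0.12 (SD, n = 2) in Ca/+ sarcomas, a difference of −2.27 (SE 0.85, 95% interval −4.33 to −0.21, limma adjusted p = 0.629). Nefl differed by −1.57 (SE 0.61, 95% interval −3.05 to −0.09, limma adjusted p = 0.629). Nefm differed by −1.25 (SE 0.35, 95% interval −2.11 to −0.40, limma adjusted p = 0.598). The intervals of these 3 genes are not adjusted for the number of genes tested. Agtr2 (−1.10), Ncam1 (−1.01), Crabp1 (−0.65) and Nptx1 (−0.50) had intervals that included 0. Slc14a1 was the exception in sign, at 1.09 (95% interval −0.27 to 2.46, limma adjusted p = 0.677). For these last 5 genes a p that misses the threshold does not show that the genotypes were alike, since the interval of Ncam1, the widest, ran from −2.85 to 0.83.

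**Figure D2:**
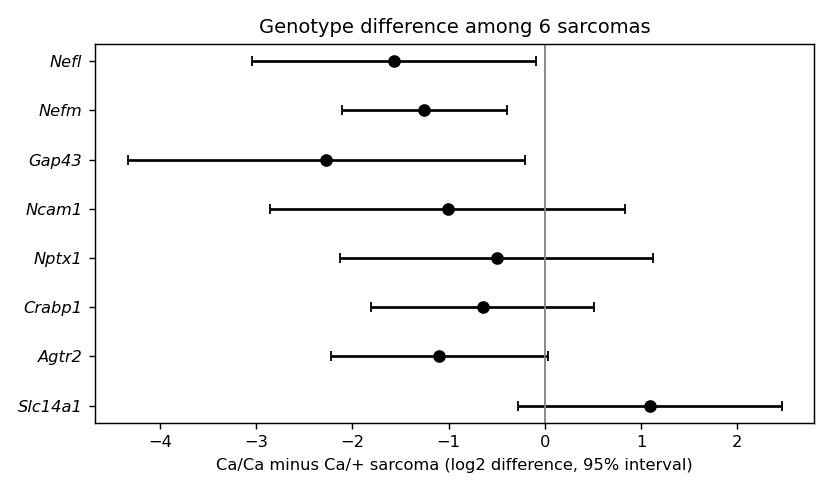
Difference in level between 4 Ca/Ca and 2 Ca/+ sarcomas (log2, Ca/Ca minus Ca/+) for each of the 8 genes, with points for the limma estimate and bars for its unadjusted 95% interval. The intervals of Nefl, Nefm and Gap43 lie below 0, that of Slc14a1 is centred at 1.09, and no gene passed after adjustment over all 12393 genes.

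The interaction of tissue and genotype asks whether sarcoma and muscle differed by the same amount in each genotype. On the probe sets used, the measured difference was larger in Ca/+ arrays for all 8 genes. Each Ca/+ difference is a lower bound for its probe set, because the Ca/+ muscle was below the floor there. For Gap43 the Ca/Ca difference is a lower bound as well, so which of its differences is larger was not shown. In Ca/Ca arrays sarcoma exceeded muscle by 0.82 (Nptx1) to 3.09 (Gap43), and in Ca/+ arrays by 4.63 (Ncam1) to 8.66 (Nefl). The estimate was −7.49 for Nefl (SE 1.17, limma adjusted p = 0.177), −6.07 for Crabp1 (SE 0.91, limma adjusted p = 0.172) and −5.59 for Nefm (SE 0.68, limma adjusted p = 0.0882). No member passed, with adjusted p from 0.0882 to 0.780, and 1 gene of all tested did (0.00807%). An unadjusted p under 0.05 was found for 5 of the 8, and, with the larger difference in Ca/+, for 3.70% of all genes. Each muscle was a single array and was assumed to vary like the sarcomas, and the choice of genes used both muscles, so these values lend no separate support to the muscle difference. With array weights Nefm passed (limma adjusted p = 0.037).

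The sarcomas were ordered alike by 3 of the genes. Over 6 sarcomas Nefl and Nefm had a Pearson r of 0.97 (exact permutation p = 0.00278, adjusted over 28 pairs 0.0389, and 0.0584 after centring on ribosomal protein genes) and a Spearman rho of 0.94 (exact permutation p = 0.0167, adjusted 0.234). Nefl and Gap43 had r 0.96 (exact permutation p = 0.00278, adjusted 0.0389) and rho 0.94 (exact permutation p = 0.0167, adjusted 0.234). Nefm and Gap43 had r 0.92 (exact permutation p = 0.0139, adjusted 0.130). Without the 2 sarcomas farthest from the median, r was 0.95, 0.89 and 0.95 in turn. The genotypes form part of this relation, since the 2 Ca/+ sarcomas lead all 3 genes. No correlation is given within a genotype, because over 4 Ca/Ca or 2 Ca/+ sarcomas it would bear little weight.

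**Figure D3:**
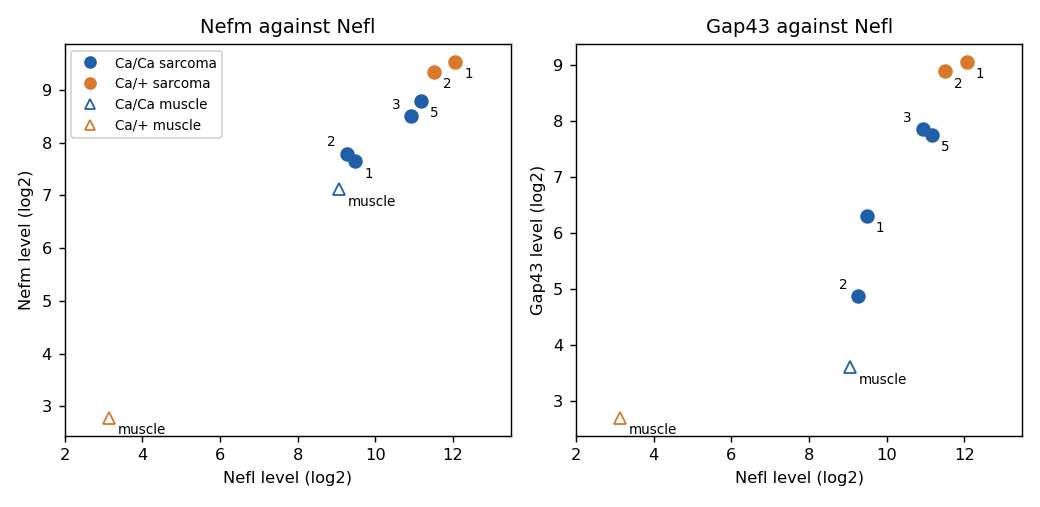
Level of Nefm (left) and Gap43 (right) against that of Nefl (all log2) on each array, with circles for sarcomas marked by tumour number and open triangles for muscles. Nefm follows Nefl over the 6 sarcomas and both muscles, whereas Gap43 reads 3.60 in the Ca/Ca muscle, where Nefl reads 9.05.

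Correlations with and among the other genes did not pass. Of the 28 pairs, 20 had r above 0, 4 had an unadjusted exact permutation p under 0.05 and 2 passed after adjustment. Nptx1 and Crabp1 had r 0.78 (exact permutation p = 0.0486, adjusted 0.340), which became −0.14 without the 2 farthest sarcomas. Leaving out the 2 farthest sarcomas also moved other pairs a long way, with Nefl and Ncam1 going from 0.04 to 0.98, Nefl and Agtr2 from 0.35 to 0.98, Nefl and Crabp1 from 0.51 to 0.86 and Gap43 and Agtr2 from 0.24 to 0.85. Over the 4 sarcomas left, such values bear little weight for any pair, those of Nefl, Nefm and Gap43 included. Slc14a1 had r below 0 with all 7 others, and the 1 remaining negative pair was Ncam1 and Crabp1 (−0.13).

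The genes most like each member over all 8 arrays were drawn from 2259 genes whose levels ranged over at least 2 log2 units. These are descriptions over 8 points that share 1 low muscle. Nefl and Nefm were each other's nearest (r 0.996), followed for both by Tor4a (0.962 and 0.975), a torsin-family ATPase, which was also nearest to Crabp1 (0.985). Nptx1 was nearest to the secreted matricellular gene Ccn3 (0.994) and the growth factor Pdgfc (0.967), and Agtr2 to the cyclin Ccnd1 (0.986) and the AP-1 subunit Fosl1 (0.985). Gap43 was nearest to the malic enzyme Me2 (0.952) and Nsg1 (0.943), and Ncam1 to the Notch effector Rbpj (0.974) and Farp1 (0.971). Slc14a1 was nearest to the transcriptional repressor Prdm1 (0.978) and the uridine phosphorylase Upp1 (0.975). After Tor4a, Crabp1 was most like Oaf (0.982), but over the 6 sarcomas alone that r was 0.53, against 0.97 for Nptx1 with Ccn3 and 0.98 for Slc14a1 with Prdm1.

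Genes beside the members in the genome were also read. Nefl and Nefm are neighbours in the RefSeq gene order, and the nearest 2 measured genes on each side of the 8 members gave 28 further genes, with a median difference between sarcoma and muscle of −0.19. Of these 28, 2 passed as higher (Dock5, next to Nefl, by 1.71 with limma adjusted p = 0.00361, and Wdr61, next to Crabp1, by 1.01 with limma adjusted p = 0.00147), 6 passed as lower and 20 did not pass. The shares over all genes were 13.1% higher and 13.2% lower, and counts out of 28 are too small to be told from these. The 6 lower genes were Kctd9, Zbtb20, Dnaja4, Klhl13, Atp5a1 and Pstpip2, from −0.89 to −1.91. Plet1, next to Ncam1, differed by 1.95 (SE 1.14, limma adjusted p = 0.255) and shared the muscle pattern, at 8.40 in the Ca/Ca and 3.48 in the Ca/+ muscle. Drd2 and Drd3, dopamine receptor genes beside Ncam1 and Gap43, were below the floor on all 8 arrays.

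Lists of genes related to the members by role did not rise as a whole. Of 191 such genes outside the 8, in 8 lists, 16 passed as higher in sarcoma (8.38%, against 13.1% of all genes). As lower 25 passed (13.1%, against 13.2%), and the median difference was −0.0064. Centring on ribosomal protein genes, which moved the median of all genes from 0.026 to −0.33, turned these counts into 14 higher and 64 lower. In each list 2 to 10 genes were below the floor on all 8 arrays, so no trend is read from the share called higher. Without the Ca/+ muscle a single muscle array is left. The median differences of the 8 lists that hold these 191 genes then lay between −0.32 and 0.29. In 9 of these genes the muscles differed at least 4-fold, in all 9 with the Ca/Ca muscle higher, and the largest were Arg1 (9.58 against 2.28), an enzyme of the urea cycle and of macrophages, and Crabp2.

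**Figure D4:**
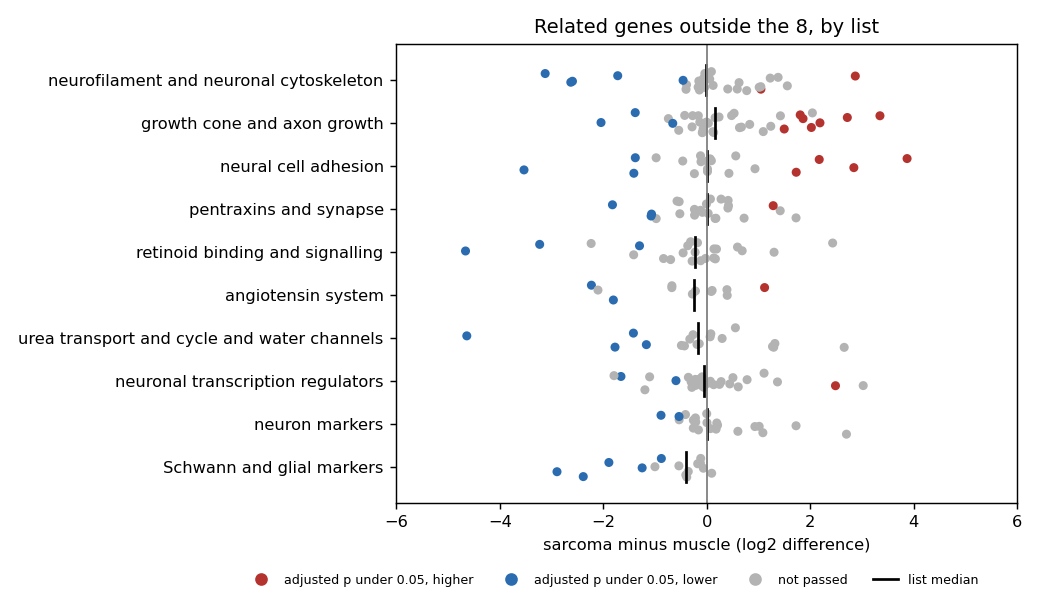
Difference between 6 sarcomas and 2 muscles (log2) for each measured gene of 8 lists related to the members and of 2 lists of nerve cell types, with a point per gene, red for adjusted p under 0.05 and higher, blue for under 0.05 and lower, grey for not passed, and a black bar for the list median. Medians lie between −0.41 and 0.16, with points on both sides in every list.

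Among 30 further genes of the neuronal cytoskeleton, 2 rose, 5 fell and 23 did not pass. Those that rose were Uchl1, a ubiquitin hydrolase abundant in neurons (2.87, SE 0.60, limma adjusted p = 0.00924), and the mesenchymal filament Vim (1.05, limma adjusted p = 0.0168). The synuclein Sncg (−3.12), Tppp3 (−2.63) and tau, Mapt (−2.60), fell. Tubb3, the neuronal tubulin, was below the floor on all 8 arrays. Among 35 further genes of the growth cone and axon growth, where Gap43 belongs, 7 rose, 3 fell and 25 did not pass. The guidance cue Slit2 rose by 3.35 (SE 0.78, limma adjusted p = 0.0146), Sema3a by 2.72 (limma adjusted p = 0.00554) and the neurotrophin Bdnf by 2.19 (limma adjusted p = 0.00367), while the receptors Ntrk2 (−2.04), Ngfr (−1.38) and Ret (−0.66) fell. Without the Ca/+ muscle Bdnf still passed (1.48, limma adjusted p = 0.0346), and Uchl1 (1.99, limma adjusted p = 0.121), Vim (0.74, limma adjusted p = 0.191), Slit2 (1.84, limma adjusted p = 0.154) and Sema3a (1.74, limma adjusted p = 0.0515) did not. Without the Ca/Ca muscle Ngfr and Ret did not pass, and Ngfr also did not without Ca/Ca sarcoma 1 or without either Ca/+ sarcoma. In the Ca/+ muscle Uchl1 (3.82), Slit2 (2.92), Sema3a (4.36) and Bdnf (4.35) were below the floor, as the 8 members were on the probe sets used.

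Among 20 further neural adhesion genes, 4 rose, 3 fell and 13 did not pass. Nrcam, an adhesion molecule of axons, rose by 3.87 (SE 0.67, limma adjusted p = 0.00414), from 5.80 (Ca/Ca muscle) and 3.07 (Ca/+ muscle) to a mean of 8.31 ± 0.59 (SD, n = 6). It still passed without the Ca/+ muscle (2.50, limma adjusted p = 0.0316), whereas Alcam (2.84), the cadherin Cdh2 (2.17) and Thy1 (1.73) no longer did. Cntnap2 (−3.53), L1cam (−1.41) and Cadm3 (−1.38) fell. Among 24 pentraxin and synapse genes, where Nptx1 belongs, 1 rose, the glutamate receptor subunit Gria1 (1.28), to a sarcoma mean of 4.55, below the floor, and Vamp1, Syn2 and Vamp2 fell. Among 23 retinoid genes, where Crabp1 belongs, 0 rose, and Aldh1a1, a retinaldehyde dehydrogenase (−4.66), and the receptors Rxrg (−3.23) and Rxra (−1.30) fell.

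Among 12 genes of the angiotensin system, Atp6ap2, the prorenin receptor, rose by 1.12, the hormone precursor Agt fell by 2.23 on the log2 scale and the peptidase Enpep differed by −1.805, so that 9 did not pass. Among 18 genes of urea and water transport and the urea cycle, 0 rose and 4 fell, with the water channel Aqp4 (−4.64) changed most, ahead of Aqp7 (−1.77), Aqp1 (−1.42) and the arginine transporter Slc7a2 (−1.17). Among 29 neuronal transcription regulators, Sox4 rose by 2.49 (limma adjusted p = 0.0177, and 0.191 without the Ca/+ muscle), Ebf1 (−1.66) and Hand2 (−0.60) fell, and 26 did not pass. Rest, the repressor of neuronal genes, read 7.91 ± 0.27 (SD, n = 6) in sarcomas against 7.27 (Ca/Ca) and 7.53 (Ca/+) in muscle, a difference of 0.51 that did not pass (SE 0.21, limma adjusted p = 0.109). Braf itself read 4.76 ± 0.21 (SD, n = 6) in sarcomas, close to the floor, and differed from muscle by 0.20 (limma adjusted p = 0.439). Besides the list genes already given, Ntrk2, Syn2, Vamp2, Aqp1, Aqp7, Enpep, Ebf1, Hand2 and Gria1 did not pass without the Ca/+ muscle. Nor did L1cam, Slc7a2 and Gria1 without the Ca/Ca muscle.

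Markers of nerve cells did not rise as a list. Of 21 measured neuron markers 0 passed as higher in sarcoma, Scg3 (−0.88) and Camk2a (−0.54) passed as lower, and the median difference was 0.0038. Below the floor on all 8 arrays were 11 of the 21, namely Rbfox3, Elavl4, Syt1, Gad1, Slc17a6, Th, Dbh, Slc18a3, Chgb, Scg2 and Camk2a. The other 10 gave signal on some array. Stmn2, a tubulin-binding protein of growing axons, was above the floor on every array (6.67 to 8.81 in sarcomas, muscles at 7.47 and 6.15, difference 1.01, limma adjusted p = 0.315). The RNA-binding protein gene Elavl2 ran from 3.25 to 7.22 in sarcomas, all above the muscles (3.20 and 1.74), with a difference of 2.70 that did not pass (limma adjusted p = 0.0704). Celf4 (1.08, limma adjusted p = 0.135), Snap25 (1.73, up to 6.30, limma adjusted p = 0.188), Eno2 (0.93, limma adjusted p = 0.162) and Gad2 (0.60, up to 5.50, limma adjusted p = 0.605) did not pass either. Elavl3, Syp and Chga had differences between −0.53 and 0.0038, and Scg3 completes the 10. The mean of the list lay between 3.75 and 4.07 in the sarcomas, against 3.71 (Ca/Ca) and 3.57 (Ca/+) for the muscles. Of 15 Schwann cell and glial markers 0 passed as higher and 5 as lower, led by Slc1a3 (−2.89), Ncmap (−2.39) and S100b (−1.89), and their mean was lower in every sarcoma (5.00 to 5.35) than in the muscles (6.17 and 5.87). Of 18 markers of denervated or regenerating muscle, a tissue in which Ncam1 and Gap43 can be seen, 1 rose (Runx1, 1.70) and 10 fell, led by Actc1 (−5.51), Fbxo32 (−3.94) and Myod1 (−2.46). All 20 muscle fibre markers fell, with a median of −4.56, and their mean ran from 6.28 to 8.30 in sarcomas. Macrophage markers ran from a mean of 9.19 to 10.39 in sarcomas, against 9.84 in the Ca/Ca and 8.54 in the Ca/+ muscle, with Ms4a7 (2.05) and Cd68 (0.98) of 15 higher, calls that held in 11 and 8 of 21 alternative settings. Fibroblast and mesenchymal markers ran from 10.13 to 10.63, against 10.41 and 9.08, with Twist1 (2.18), Thy1 and Vim of 16 higher. Leaving out a muscle leaves 1 muscle array, and calls then became fewer over all genes too. Ms4a7, Cd68, Twist1, Thy1, Vim, Runx1, Slc1a3 and Camk2a lost their call without the Ca/+ muscle, and Scg3, Camk2a and S100b without the Ca/Ca muscle. Without the Ca/+ muscle list medians were 0.25 (macrophage), 0.11 (fibroblast), −0.56 (denervation), −0.54 (Schwann cell and glial) and 0.062 (neuron). Without the Ca/Ca muscle they were 1.59, 1.24, −0.84, −0.36 and 0.065 in turn. The part of any of these cell types in the levels of the 8 genes was not tested.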

How the data were processed

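The values deposited for 8 Affymetrix arrays are log2 levels of probe sets, made by the authors with RMA per the submitters' processing notes (version not given in the sources used here). RMA gives arrays run through it jointly 1 shared distribution, which hides changes in total RNA; nothing states that all 8 were run jointly. Of 22690 probe sets, 64 were controls and were left out, 20380 had 1 gene symbol in the platform annotation, 691 had several and 1555 none; 12393 genes resulted, each by its brightest probe set. Entrez numbers of 20351 probe sets were in RefSeq (GRCm38.p6), which gave the gene order and the promoters. Columns of other samples numbered 0.

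Groups came from the sample titles. Tests used limma 3.58.1 in R 4.3.3 (lmFit, then eBayes), adjusted by Benjamini-Hochberg over the 12393 genes and called at 0.05. Figures were drawn with matplotlib 3.10.9 in Python 3.11.15. The limma fit was tested on simulated data. At most 32 values were equal between any 2 arrays, so none was a copy.

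The members and the 17 gene lists (352 of 403 symbols matched) were chosen with earlier results of these data known. Named are the 8 members; list genes past the threshold, all where 4 or fewer passed in a direction and otherwise the 3 of largest change; the 2 neighbours on each side; the 2 most alike genes per member; the 2 context genes that differed most between muscles; and Braf and Rest. Family members (Nefh, Ina, Prph, Ncam2, St8sia2, St8sia4, Nptx2, Crabp2, Slc14a2, Tubb3), Hmga2 and the neuron markers that did not pass were added after their values were seen. Alternatives were other scalings, probe-set averaging, filters on dim genes, array weights, a trended robust fit, single-genotype fits, a replicate block and each array left out.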

Additional observations from a re-analysis of the deposited data

How the results depend on the processing

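The median difference of the 8 genes between sarcoma and muscle, 3.89, was 1.65 in Ca/Ca arrays, 6.27 in Ca/+ arrays, and between 1.905 (without the Ca/+ muscle) and 5.61 (without the Ca/Ca muscle) with 1 array left out, so its size depends on which muscle is used. Related genes called higher numbered 16, with 3 in Ca/Ca arrays alone and 5 (without the Ca/+ muscle) to 24 with 1 array left out. Those called lower numbered 25, with 64 after centring on ribosomal protein genes, 15 and 4 without the dimmest 25% and 50% of genes (fewer genes were tested), 10 in Ca/Ca arrays, 14 in Ca/+ arrays and 18 to 28 with 1 array left out. The share of calls that were higher over all genes was 49.9% (1626 higher, 1630 lower), 38.7% after cyclic loess, 31.8% after centring on housekeeping genes and 13.8% after centring on ribosomal protein genes. Over all genes 372 were called higher without the Ca/+ muscle and 1040 without the Ca/Ca muscle.

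The Ca/Ca against Ca/+ sarcoma test called 0 of the 8 genes under every alternative run. Nptx1 changed sign without Ca/+ sarcoma 1 (0.23, limma adjusted p = 0.971), within a range of −1.23 to 0.23 with 1 array left out. The interaction, a description only because the choice of genes used both muscles, called 1 gene, Nefm, with array weights and 0 otherwise. The correlation of Nefl with Nefm was 0.97 after centring on ribosomal protein genes (exact permutation, adjusted p = 0.0584) and 0.96 to 0.98 over 5 sarcomas (exact permutation, adjusted p = 0.117 to 0.311), where the smallest possible unadjusted p is 0.00833, so loss of the call there says little. The cause of these changes was not tested. Whether shared tumour numbers pair the sarcomas could not be told. Correlations of same-numbered deviations were −0.19 and 0.29 for 2 shared numbers, but the deviations of 2 Ca/+ sarcomas from their mean are mirror images. With the numbers as a replicate block 0 of the 8 genes were called, with Gap43 at −3.38. The interaction could not be fitted without either muscle, and Gap43 and Agtr2 were removed with the dimmest 50% of genes. In groups of 4 to 10 arrays, 0 of 16 gene and group sets had an array far from the rest. Depth here is signal over the floor: in the Ca/+ muscle all 8 genes were below it on the probe sets used.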
